A study of Rattus norvegicus with 112 samples.

Results

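The AMPA and kainate receptor subunit genes were followed in cultured rat cortical neurons, on 112 Affymetrix expression arrays. Members were all probe sets annotated to Gria1, Gria2, Gria3, Gria4 or Grik1, Grik2, Grik3, Grik4, Grik5 alone. This gave 16 of 1263 probe sets and 9 of 720 named genes, 10 probe sets for the 4 AMPA subunits and 6 for the 5 kainate subunits. All 9 genes were present on the array.

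The agents were NMDA, which opens NMDA-type glutamate receptors, nicotine, and 4R, which the labels call a non-competitive antagonist of nicotinic receptors. In the continuous experiment, 3 arrays each read control cultures and cultures left in 1 mM NMDA for 10, 30, 60, 180 or 360 min. In the pulse experiment, 4 arrays each read controls and cultures given 1 mM NMDA for 10, 30 or 60 min, washed, and harvested 24 h later. A second pulse set had 1 array per group. In the crossed experiment, 3 arrays each read 10 uM nicotine for 18 h with 1 mM NMDA added for the last 60 min, NMDA for 60 min alone, nicotine for 18 h alone, and control. In the washed-out experiment, 5 arrays each read 10 uM nicotine (18 h) combined with a 30 min pulse of 1 mM NMDA, the pulse alone, nicotine alone, and control, all harvested 24 h after the wash. Its samples were hybridized in a first run and again in a repeat run, which the labels attribute to an oven failure without saying which run it affected. The repeat run was taken as the main one here. The remaining experiments set 3 treated against 3 control arrays each. The first was a 15 min exposure to 10 uM nicotine, harvested 45 min after a medium change. The second was 18 h in 2 uM 4R, and the last was the same exposure with a further 24 h free of 4R. What the controls received in place of the agents, the age of the cultures and the strain of rat are not stated in the sources used here.

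AMPA receptors are tetramers of GluA subunits encoded by Gria1 to Gria4, and they carry most fast excitatory transmission in the cortex. Kainate receptors are tetramers of GluK subunits encoded by Grik1 to Grik5, and they act on both sides of the synapse with slower currents. The number and makeup of AMPA receptors at a synapse change with the activity of NMDA receptors, through trafficking of the receptor protein as well as through transcription.

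Some arrays stood apart from their run, with a median correlation to the other arrays of the run more than 3 median absolute deviations below the run's median. There were 3 in the continuous run, 2 in the pulse run, 2 in the crossed run and 2 in the washed-out repeat run. In the repeat run these were control replicates 3 and 4, whose median correlations were 0.20 and 0.59. In the first run of the same samples 2 arrays stood apart, with higher median correlations. These were replicate 5 of nicotine, at 0.935, the lowest of that run, and replicate 5 of nicotine with NMDA, at 0.942. The neuronal markers on the array were above the low-signal cut in every run, 8 of 8 genes. The astrocyte markers were above it for 4 or 5 of 5 genes and the oligodendrocyte lineage markers for 4 to 6 of 6. The single microglial marker, Itgam, and the single excitatory neuron marker, Camk2a, were below the cut in 6 of 7 runs, and all 4 inhibitory neuron markers were above it. In such bulk RNA, fewer cells of a type and less RNA per cell cannot be told apart.

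Among the AMPA subunits, 2 of 3 probe sets of Gria1 and both of Gria2 gave a signal above the low-signal cut in all 7 main runs, while those of Gria3 mostly did not. Gria1 encodes GluA1, the subunit whose phosphorylated tail takes part in activity-driven insertion at synapses. Its probe set M36418_s_at read between 227 and 4567 over the 24 control arrays of the main runs, with a median of 2435. S56679_s_at had a median of 1219, and X17184_at, with a median of 225, passed the cut in 1 run. Gria2 encodes GluA2, whose edited pore keeps most AMPA receptors impermeable to calcium. Its probe sets M36419_s_at and M38061_at had medians of 2016 and 1936 in control arrays. Gria3 and Gria4 encode GluA3 and GluA4, the second being prominent in interneurons and in early development. The Gria3 medians were 247 for M36420_s_at and 256 for X54656_at, and each probe set passed the cut in 2 of 7 runs. The Gria4 medians were 384 for M36421_s_at, 339.5 for S94371_at and 476 for S94371_g_at, which passed in 6, 4 and 6 runs. Levels of different probe sets were not set against each other, since each has its own hybridization strength.

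Among the kainate subunits, Grik5 was read with the least spread and Grik1 was below the cut in every run. Grik5 encodes GluK5, a high-affinity subunit that needs a GluK1 to GluK3 partner to form a channel. Its probe set Z11581_at read between 5214 and 14916 in control arrays, with a median of 12184, and the means of the 7 runs' controls differed by 1.35-fold at most. Grik2 and Grik3 encode GluK2 and GluK3, which can form channels alone. Their probe sets Z11548_at and AF027331_at had medians of 668 and 430.0 and passed in all 7 runs. Grik4 encodes GluK4, the other high-affinity subunit. Its probe set U08257_at had a median of 348 and passed in 5 runs, and X59996mRNA_s_at, with a median of 82.7, passed in none. The Grik1 probe set M83561_s_at, for the partner subunit GluK1, had a median of 149 and also passed in none. The ratio of the highest to the lowest run mean in controls was 1.97 for M36418_s_at and 4.47 for Grik3, where the highest mean came from the repeat run with its aberrant control replicate 3.

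**Figure D1:**
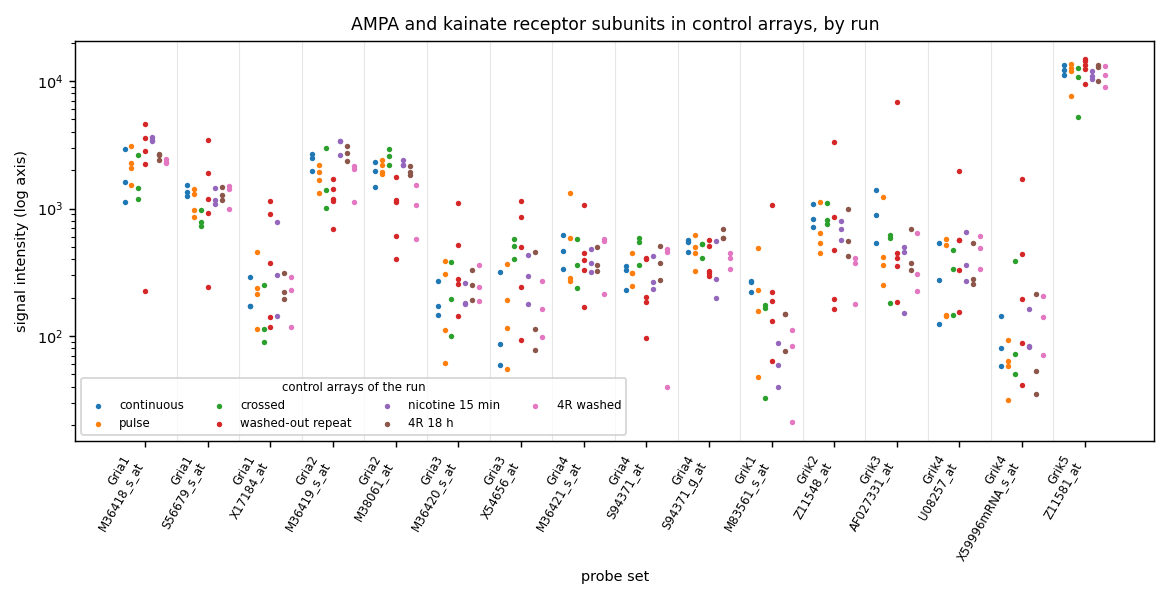
Signal intensity (log axis) of each of the 16 probe sets in every control array of the 7 main runs, 1 point per array and 1 colour per run. Grik5 lay between 5214 and 14916 on all 24 arrays, while single points of the washed-out repeat run, such as 6853 for Grik3 and 227 for Gria1 (M36418_s_at), came from control replicate 3.

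No AMPA or kainate subunit passed the test in any of the 29 comparisons, in which the washed-out experiment enters with its repeat run. With its first run in place, Grik4 passed, as described with that experiment. The test was limma's moderated test on log2(signal + offset), with Benjamini-Hochberg adjustment over all probe sets tested in a comparison and a threshold of 0.05. It covered 280 combinations of a member and a comparison, of which 10 had an unadjusted p under 0.05 and 181 had a log2 change below 0. Over all probe sets 5.88% of tests were under 0.05 unadjusted, and the share below 0 ran from 42.5% to 60.5% by comparison. The 280 combinations overlap, since comparisons share arrays and some genes have several probe sets. Nothing in the labels says that the replicates of the continuous, washed-out and nicotine 15 min experiments were separate cultures, so the p-values measure the spread between these samples. Replicates 3 and 4 of the pulse run carry the same date in their culture marks, as do replicates 4 and 5 of the washed 4R run. Whether those were separate cultures is not stated either. A p that misses the threshold does not show that a level was unchanged. For Grik5 the 95% interval lay within 1 log2 unit of 0 in 25 of 29 comparisons, so a change of its signal by more than a doubling or a halving lay outside those intervals. For Grik3 this held in 2 of 29, and for Gria1 (M36418_s_at) in 10 of 29.

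**Figure D2:**
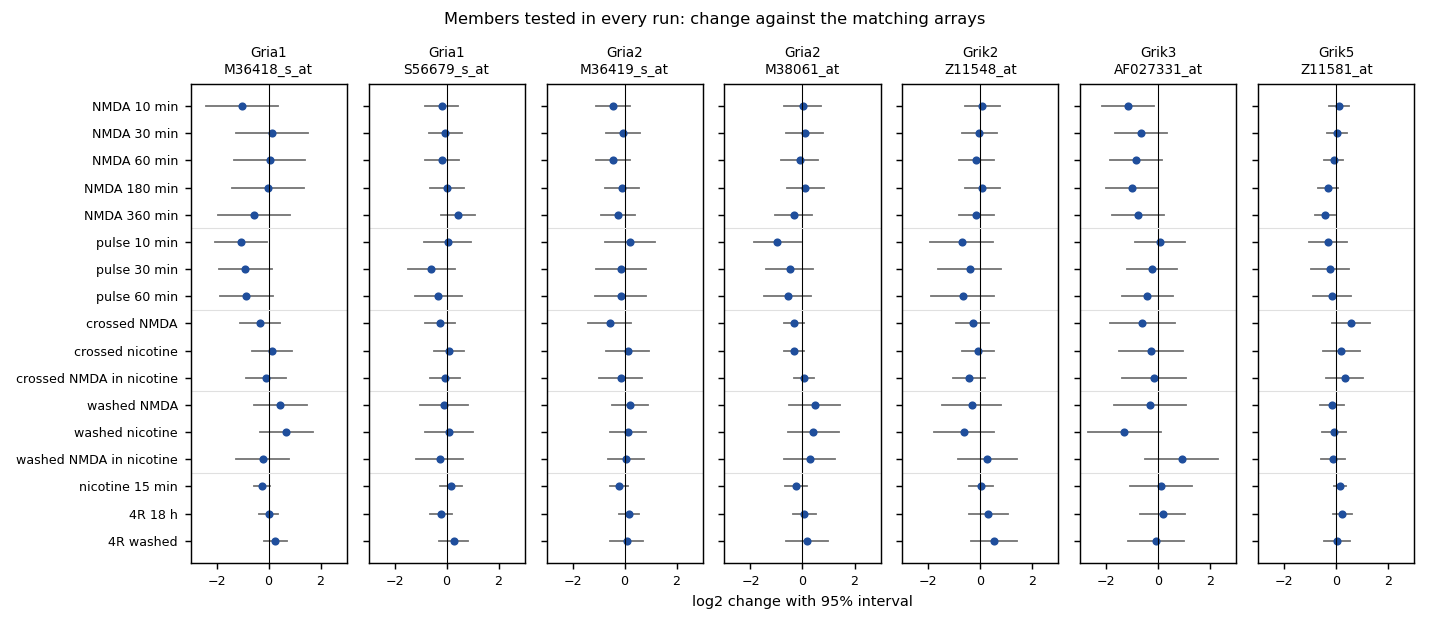
Log2 change (points) with its 95% interval (lines) for the 7 probe sets tested in every run, against control or, for NMDA in nicotine, against nicotine alone. The intervals of Grik5 lay within 1 log2 unit of 0 in 25 of all 29 comparisons, and those of Grik3 in 2.

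The continuous experiment asks how expression moves while NMDA is present. Of the members, 9 probe sets of 6 genes were tested, and Gria3, Grik1 and Grik4 were below the cut. At 10 min 0 of 9 passed, where 0% of all 884 probe sets passed and 7.13% had an unadjusted p under 0.05. At 30 min 0 of 9 passed, against 0% of all, with 1.81% at the unadjusted level. At 60 min the share of all probe sets that passed was 0.679%, at 180 min 0.452% and at 360 min 0%, and 0 of 9 members passed at each. At the unadjusted level, 1 member was under 0.05 at 10 min (Grik3), 1 at 180 min (Grik3) and 1 at 360 min (Grik5), and none at 30 or 60 min, where 2.26% of all probe sets were under it at 60 min, 3.96% at 180 min and 8.26% at 360 min.

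Grik3 (AF027331_at) had the smallest p of the run, at 10 min. It read 247, 475 and 336 after 10 min of NMDA, against 886, 1386 and 538 in controls. The treated arrays all lay below the controls, a separation in that direction that 6% of all tested probe sets showed. The log2 change was -1.17 (SE 0.47, 95% interval -2.17 to -0.17, unadjusted p = 0.0249, limma adjusted p = 0.568). Its mean signal along the series was 937 ± 426 in controls, then 353 ± 115 at 10 min, 582 ± 375 at 30 min, 487 ± 271 at 60 min, 409.5 ± 178 at 180 min and 494 ± 209.5 at 360 min (SD, n = 3 each). Every time point had a mean below the controls, but all 5 share the same 3 control arrays. Replicates 2 and 3 of the 10 min group stood apart, with GAPDH 3'/5' signal ratios of 2.41 and 2.27 against a run median of 1.55. Without them and replicate 3 at 360 min, only replicate 4 is left in the 10 min group. The change of -1.19 in that fit rests on this array alone and is no check between replicates.

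Grik5 (Z11581_at) was the other kainate subunit with an unadjusted p under 0.05, and is described after its values were seen. Its mean signal was 12236 ± 1047 in controls, 13247 ± 1704 at 10 min, 12499 ± 1064 at 30 min, 11331 ± 996 at 60 min, 9847 ± 1479.6 at 180 min and 9131 ± 1386 at 360 min (SD, n = 3 each). The 360 min arrays lay between 7626 and 10354, all below the control arrays at 11158 to 13248, which 7.01% of all tested probe sets did. The lowest of them, replicate 3, stood apart from the run, with a median correlation of 0.848 and a GAPDH 3'/5' ratio of 2.25. Replicates 2 and 4 read 9413 and 10354. The change at 360 min was -0.43 (SE 0.18, 95% interval -0.81 to -0.05, adjusted p = 0.510). Averaged over 180 and 360 min it was -0.37 (adjusted p = 0.765), a comparison in which 0.679% of all probe sets passed and 0 of 9 members did. At the unadjusted level it had 2 members, Grik3 and Grik5, where 5.66% of all were under 0.05. Grik2 had changes between -0.16 and 0.07 over the 5 times.

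The AMPA subunits had wider or smaller changes. Gria1 (M36418_s_at) averaged 1879 ± 926 in controls and 1132 ± 864 at 10 min, where replicate 3 read 175, and its log2 changes over the 5 times lay between -1.02 and 0.13. The second Gria1 probe set, S56679_s_at, lay between -0.19 and 0.44. The changes of Gria2 lay between -0.45 and -0.06 for M36419_s_at and between -0.33 and 0.10 for M38061_at. Those of Gria4 lay between -0.43 and 0.06. No tested member separated all its treated from all its control arrays at 30, 60 or 180 min.

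**Figure D3:**
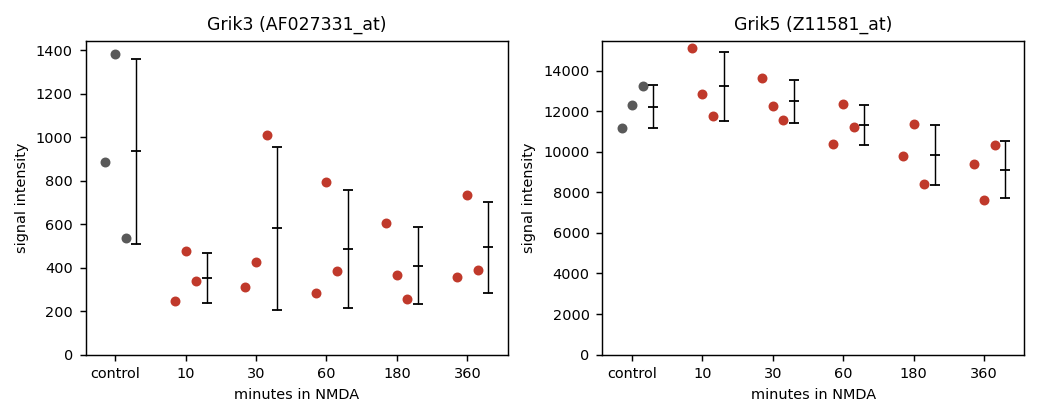
Signal intensity of Grik3 and Grik5 on each array of the continuous experiment (points), with the mean and SD of each group beside them, from control to 360 min in NMDA. The Grik3 arrays at 10 min (247 to 475) and the Grik5 arrays at 360 min (7626 to 10354) lay below their control arrays, and neither change passed the test. Some of these arrays stood apart from the run, among them the lowest Grik5 array at 360 min.

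The pulse experiment asks what remains 24 h after a brief exposure to NMDA. Of the members, 10 probe sets of 7 genes were tested, and Gria3 and Grik1 were below the cut. After the 10 min pulse 0 of 10 passed, where 2.26% of all 884 probe sets did, and 2 were under 0.05 unadjusted, where 9.28% of all were. After the 30 min pulse 0 of 10 passed against 1.36% of all, and after the 60 min pulse 0 of 10 against 1.58% of all. At the unadjusted level these last pulses had 0 members, with 4.98% of all probe sets after 30 min and 6.11% after 60 min. For the 3 pulses averaged 0 of 10 passed against 2.71% of all, and 1 was under 0.05 unadjusted, where 8.94% of all were.

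Gria1 (M36418_s_at) had the smallest p of the run, for the 3 pulses averaged. Its 4 controls read 2090.0, 1537, 2265 and 3096. The arrays read 969, 1482, 2771 and 231 after the 10 min pulse, 1086, 980.4, 1227 and 1320.35 after 30 min, and 1263, 1149, 1242 and 1054 after 60 min. All 30 and 60 min arrays lay below all controls, while the 10 min arrays spread from below to within the control range. A separation of that kind was shown by 3.17% of all tested probe sets after the 30 min pulse and by 1.7% after the 60 min pulse, and by 1 of 10 members in each. The log2 change was -1.06 after 10 min, -0.89 after 30 min and -0.86 after 60 min (SE 0.48 each, adjusted p = 0.518, 0.999 and 0.889). Averaged over the pulses it was -0.94 (SE 0.40, 95% interval -1.77 to -0.11, unadjusted p = 0.0289, adjusted p = 0.465). These comparisons share the same 4 controls.

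Other arrays of the same kind were also read. The repeat array of replicate 4 of the 10 min pulse gave 1397 for M36418_s_at, where its first array gave 231. With the repeat arrays in place of the first ones, the change after 10 min was -0.48 (adjusted p = 0.493). The repeat array of replicate 3 of the 10 min pulse gave 2771, but it matched the first array to within 0.05 at all 1322 probe sets, so it is not a second measurement. The repeat arrays of replicate 3 of the 30 min pulse and replicate 4 of the 60 min pulse gave 1227 and 897. In the second pulse set, the single control array read 1601, and the arrays after 10, 30 and 60 min read 1157, 1359.95 and 1528, with no replicate check. Replicate 3 of the 10 min pulse and replicate 4 of the 60 min pulse stood apart, with GAPDH 3'/5' ratios of 2.61 and 12.3 against a run median of 1.42. Without both, the averaged change of Gria1 was -1.08 (adjusted p = 0.0905).

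The second Gria1 probe set did not separate the groups. S56679_s_at averaged 1137 ± 269.5 in controls, 1292 ± 805 after 10 min, 797 ± 372 after 30 min and 927 ± 358 after 60 min (SD, n = 4 each), and its averaged change was -0.29 (SE 0.35). For Gria2, described after its values were seen, M38061_at averaged 2094 ± 258 in controls, 1188 ± 693 after 10 min, 1567 ± 672 after 30 min and 1489.7 ± 639 after 60 min. Its change after 10 min was -0.96 (SE 0.43, adjusted p = 0.498), and groups overlapped. The other Gria2 probe set, M36419_s_at, had changes of 0.21, -0.14 and -0.15 after the same pulses, so that the probe sets of this gene differed in sign after 10 min. Gria4 lay between -0.30 and -0.03 over its 2 tested probe sets, and of the kainate subunits Grik2 lay between -0.71 and -0.42, Grik3 between -0.42 and 0.06, Grik4 between -0.17 and 0.69, and Grik5 between -0.34 and -0.16.

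The direction of the members was counted after their values were seen. After the 10 min pulse 6 of 10 tested members had a change below 0, where 52.6% of all tested probe sets did. After the 30 and 60 min pulses all 10 did, where 55.9% and 58.3% of all did. With quantile normalization or with median centring the count was 6 of 10 after 10 min, 10 of 10 after 30 min and 9 of 10 after 60 min. The members' median changes were -0.14, -0.28 and -0.29 after the 3 pulses, beside -0.04, -0.06 and -0.11 over all tested probe sets, and the comparisons share the same 4 controls. The 10 probe sets stand for 7 genes. The 30 min pulse of the washed-out repeat run, also read 24 h later, gave 4 of 7 members below 0, where 49.8% of all were. Of its 4 AMPA probe sets 1 lay below 0, in a run with control arrays that stood apart. The summed signal of the 8 neuronal markers ranged from 117352 to 132300 in controls, from 39786 to 133527 after 10 min, from 98374.5 to 124249 after 30 min and from 101031 to 125069 after 60 min. That of the 4 inhibitory neuron markers ranged from 17513 to 55667 in controls, from 5267 to 89368 after 10 min, from 25501 to 78140 after 30 min and from 24518.5 to 77058 after 60 min. All 12 markers were above the cut, and their part in the members' values was not tested.

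**Figure D4:**
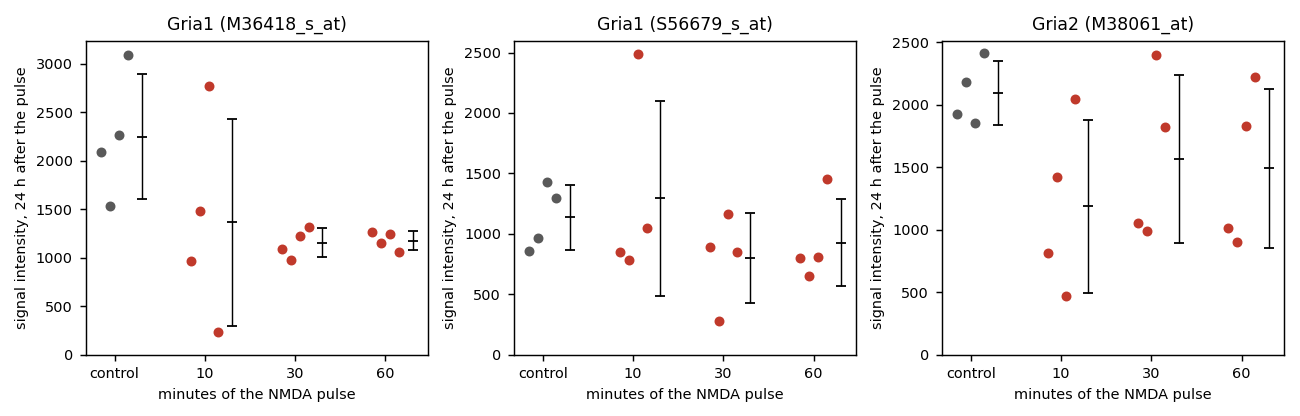
Signal intensity on each array of the pulse experiment (points), with the mean and SD of each group beside them, for both probe sets of Gria1 tested there and Gria2 (M38061_at), from control to the 60 min pulse. The 30 and 60 min arrays of M36418_s_at (980.4 to 1320.35) lay below all 4 controls, and those of the other panels overlapped their controls.

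The crossed experiment asks whether 18 h of nicotine changes the response to 60 min of NMDA. Of the members, 12 probe sets of 8 genes were tested, and Grik1 was below the cut. For NMDA against control 0 of 12 passed, where 0.905% of all 884 probe sets did, and 1 was under 0.05 unadjusted, where 6.11% of all were. For nicotine against control 0 of 12 passed against 0% of all, and 0 were under 0.05 unadjusted against 4.52%. For NMDA in nicotine-treated cultures against nicotine alone 0 of 12 passed against 1.02%, with 0 against 3.39% unadjusted. For nicotine with NMDA against NMDA alone 0 of 12 passed against 0%, with 0 against 1.58% unadjusted. The interaction was passed by 0 of 12 members and 0% of all probe sets, and 1 member, Grik4, was under 0.05 unadjusted, where 1.81% of all were. Averaged over the other agent, NMDA gave 0 of 12 against 1.24% of all (0 against 5.2% unadjusted) and nicotine gave 0 of 12 against 0% (0 against 3.05% unadjusted).

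Gria3 (X54656_at) had the smallest p of the run, for NMDA against control. It read 31.9, 281 and 216 in NMDA cultures, against 405, 574 and 510.0 in control cultures, and all NMDA arrays lay below all controls, as did those of 4.3% of all tested probe sets. The log2 change was -1.44 (SE 0.63, 95% interval -2.80 to -0.08, adjusted p = 0.744). In cultures with nicotine and NMDA it read 409, 397 and 46.2, against 237, 282 and 497 in cultures with nicotine alone, which overlapped. The low-signal cut was 259 in this run, and the other Gria3 probe set, M36420_s_at, was below it. The NMDA readings of X54656_at straddled the cut, and the lowest lay under the offset of 57.1. Control replicate 2 and NMDA replicate 2 stood apart, with GAPDH 3'/5' ratios of 3.36 and 2.18 against a run median of 1.47, and without them the change of X54656_at was -1.71 (adjusted p = 0.823).

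Gria1 and Gria2 did not pass the test here. M36418_s_at averaged 1741 ± 517 with nicotine and NMDA, 1334 ± 339 with NMDA, 1909 ± 734 with nicotine and 1769 ± 777 in controls (SD, n = 3 each). M38061_at of Gria2 averaged 2137 ± 126, 2053 ± 266, 2049 ± 206 and 2578 ± 369 in the same order, with changes of -0.32 for NMDA and -0.32 for nicotine against control (SE 0.18 each, unadjusted p = 0.104 for both). The other Gria2 probe set, M36419_s_at, had changes of -0.57 for NMDA against control and 0.55 for nicotine with NMDA against NMDA alone (SE 0.38 each). The 3 Gria4 probe sets had changes between -0.27 and 0.03 for NMDA. Among the kainate subunits, described after their values were seen, Grik5 averaged 12729.8 ± 603 with nicotine and NMDA and 13329.6 ± 998 with NMDA. With nicotine it averaged 10829 ± 4133 and in controls 9545 ± 3886. The controls read 10695, 12725 and 5214, and the lowest nicotine array read 6189, so 1 low array weighs on each of these means. The change of Grik5 with NMDA was 0.57 (SE 0.33, adjusted p = 0.972). Grik2 averaged 586 ± 86.1 with nicotine and NMDA and 816 ± 102 with nicotine alone. Its arrays in that pair did not overlap, as for 4.3% of all tested probe sets in that direction, and the change was -0.44 (SE 0.28, adjusted p = 0.996). Grik4 had an interaction of -1.48 (SE 0.67, adjusted p = 0.997), with changes of 0.46 for NMDA alone and -1.02 for NMDA in nicotine.

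The washed-out experiment asks what remains 24 h after nicotine, a 30 min NMDA pulse, or both. In its repeat run 7 probe sets of 5 genes were tested. The cut was 427 there, against 255 in the first run of the same samples, and Gria3, Gria4, Grik1 and Grik4 fell below it. For NMDA against control 0 of 7 passed, where 0.226% of all 884 probe sets did and 17.8% had an unadjusted p under 0.05. For nicotine against control 0 of 7 passed against 0%, with 21.2% of all under 0.05 unadjusted. For NMDA in nicotine-treated cultures 0 of 7 passed against 0%, with 4.52% unadjusted, and for nicotine with NMDA against NMDA alone 0 of 7 against 0%, with 0.452% unadjusted. For the interaction 0 of 7 passed against 0%, with 3.73% unadjusted. Averaged over the other agent, 0 of 7 passed for NMDA against 0.792%, with 11.2% unadjusted, and 0 of 7 for nicotine against 0%, with 7.81% unadjusted. No tested member had an unadjusted p under 0.05 in these 7 comparisons. The fits kept control replicates 3 and 4, which stood apart from the run. In the first run of the same samples 13.9% of all probe sets passed for NMDA against control. The counts of 0 of 7 therefore do not show unchanged levels.

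Grik3 had the smallest p, for nicotine against control. It read 261, 155, 192, 179 and 376 in nicotine cultures, against 358, 186, 6853, 410.0 and 445 in control cultures. The control range rests on replicate 3, at 6853, and the remaining arrays overlapped. The log2 change was -1.31 (SE 0.67, adjusted p = 0.25). Without control replicates 3 and 4 it was -0.40 (adjusted p = 0.865), and in the first run it was 0.21 (adjusted p = 0.803), so its direction turned between hybridizations.

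Gria1 (M36418_s_at) averaged 2705 ± 478 with nicotine and NMDA, 2739 ± 691 with NMDA, 3165 ± 428 with nicotine and 2684 ± 1626 in controls (SD, n = 5 each), where control replicate 3 read 227. Its change with NMDA was 0.45 (SE 0.49) in the repeat run, -0.08 without control replicates 3 and 4, and -0.31 in the first run (adjusted p = 0.600, 0.857 and 0.192). The 30 min pulse of the pulse experiment gave -0.89 for the same probe set, with its own controls. Grik5 averaged 10879 ± 1207 with nicotine and NMDA, 11383 ± 958 with NMDA, 11974 ± 1498 with nicotine and 12906 ± 2155 in controls, and its change for NMDA averaged over both nicotine states was -0.15 in the repeat run and -0.18 in the first run (adjusted p = 0.711 and 0.148).

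Grik4 (U08257_at), described here after its values were seen, was the single member that passed in the first run. There it read 76.0, 158, 146, 291 and 114 in NMDA cultures, against 494, 430.2, 337, 604 and 549 in control cultures. All NMDA arrays lay below all control arrays, which 2.6% of all tested probe sets did. With nicotine and NMDA it read 83.3, 166, 99.1, 379 and 96.2, against 126, 298, 235, 768 and 482 with nicotine alone. These groups overlapped. The low-signal cut was 255 in the first run, and the mean of Grik4 over all its arrays was 297, so it was tested. All control arrays read above the cut. In both groups given NMDA, only replicate 4 did. The fall with NMDA therefore ran from above the cut into the low-signal range, where its size is poorly measured. The change with NMDA was -1.39 (SE 0.38, 95% interval -2.17 to -0.60, adjusted p = 0.0207), and averaged over both nicotine states it was -1.16 (SE 0.27, adjusted p = 0.00622). In these fits 1 of 11 tested members passed, where 13.9% and 15.3% of all probe sets did. For NMDA in nicotine-treated cultures 0 of 11 passed against 2.04% of all, and for nicotine against control 0 of 11 against 0.339%. The call for NMDA against control was lost without NMDA replicate 1 (adjusted p = 0.0524) or without control replicate 4 (adjusted p = 0.0504). The call averaged over both nicotine states held in all 27 alternatives tried. Those refits reuse the same arrays, on which Grik4 passed the cut mainly through the groups without NMDA. They are therefore no separate support for the fall.

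The repeat hybridization did not show that separation. Grik4 read 414, 318, 210.0, 106 and 449 in NMDA cultures, against 569, 330.5, 1967, 568 and 153 in control cultures, and the groups overlapped. With no filter on low signal its change there was -0.80. That value includes control replicate 3, at 1967, which stood apart, so its direction is not read as a repeat of the fall. The same sample read between 0.225 and 5.83 times as much in the repeat run as in the first, with a median of 1.48 over 20 samples. The highest ratio was that of control replicate 3. For Grik5 that ratio lay between 0.802 and 1.34. After the pulses of the pulse experiment Grik4 had changes of 0.69, -0.12 and -0.17, and it passed in none of the 5 main runs that tested it.

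Gria2 (M38061_at) was low in the replicate 4 samples of all 4 washed-out groups, a pattern seen in the data and then described. In the first run M38061_at read 819 with nicotine and NMDA, 589.6 with NMDA, 503 with nicotine and 688 in controls for replicate 4, against 1019 to 2334 in the other 16 arrays. In the repeat run the replicate 4 samples read 715, 453, 379 and 405 in the same order, against 615 to 2408 in the others. The median of the replicate 4 arrays was 0.409 times that of the others in the first run and 0.268 times in the repeat run. For M36419_s_at these ratios were 0.550 and 0.604, but in the repeat run its control replicate 4, at 1179, lay above control replicates 2 and 3, at 1145 and 686. Lying below all other replicates in the first run was shared by 1.47% of tested probe sets, among them Grik2. In the repeat run 0.113% of probe sets did so, and no member. What replicate 4 has in common across the groups is not stated in the labels.

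**Figure D5:**
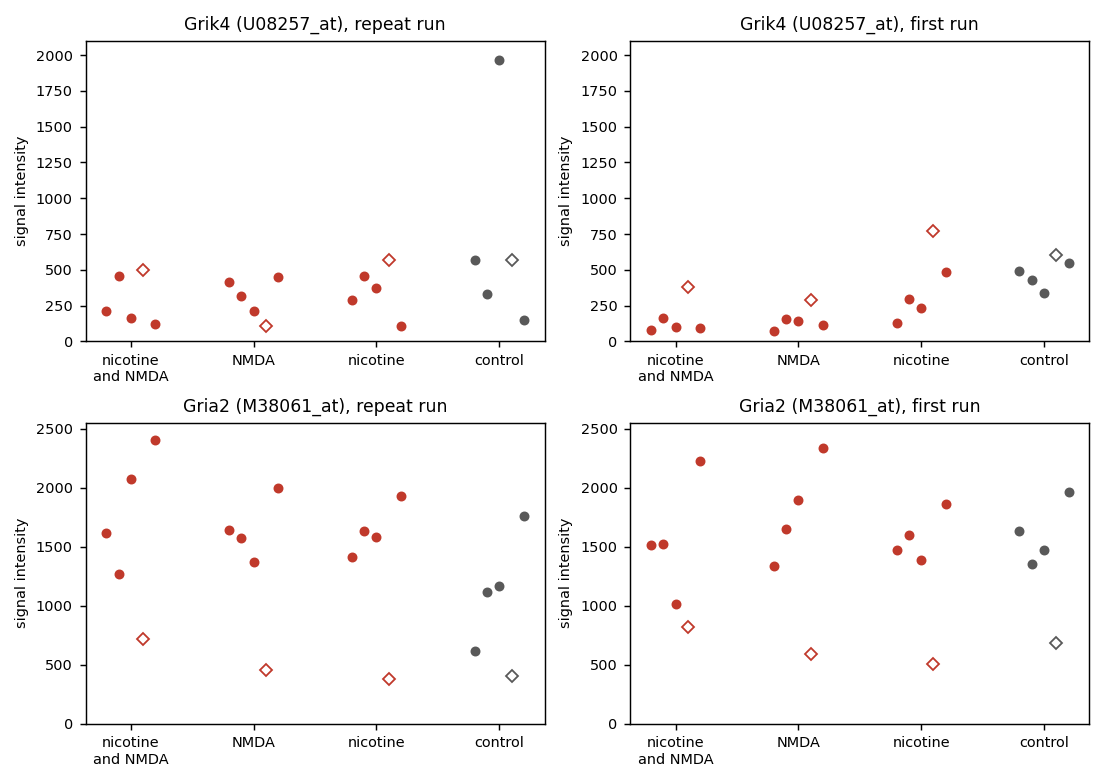
Signal intensity of Grik4 (U08257_at) and Gria2 (M38061_at) on each array of the washed-out experiment, repeat run on the left and first run on the right, with replicate 4 of each group as an open diamond and the other replicates as filled circles. In the first run the Grik4 arrays with NMDA alone (76.0 to 291) lay below the controls (337 to 604), and in both runs the replicate 4 samples were the lowest of their group for Gria2.

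Brief nicotine and 4R gave no call. For 15 min of nicotine, 14 probe sets of 8 genes were tested and 0 passed, with 0 under 0.05 unadjusted, where 0% and 3.28% of all 884 probe sets did. Gria1 (M36418_s_at) had the smallest p. It read 2581, 3112 and 3025 in nicotine cultures, against 3424, 3368 and 3669.9 in control cultures. All nicotine arrays lay below all controls, which 5.43% of all tested probe sets did, and the change was -0.26 (SE 0.14, 95% interval -0.57 to 0.04, limma adjusted p = 1.00). The second Gria1 probe set had a change of 0.18 (SE 0.19). Gria3 (M36420_s_at) was the 1 of 14 members with all nicotine arrays above all controls, as for 4.41% of all tested probe sets, with a change of 0.56 (SE 0.35).

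For 18 h of 4R, 12 probe sets of 8 genes were tested and 0 passed, with 0 under 0.05 unadjusted, where 0% and 2.26% of all did. Grik5 had the smallest p and read 14010.0, 14039 and 14089 in 4R cultures, against 9932, 13417 and 12891 in control cultures, a change of 0.23 (SE 0.15, 95% interval -0.12 to 0.58). The 4R arrays all lay above the controls, as for 4.75% of all tested probe sets. For 4R followed by 24 h without it, 11 probe sets of 7 genes were tested and 0 passed, with 0 under 0.05 unadjusted, where 0% and 1.58% of all did. Gria1 (M36418_s_at) read 3214, 2848 and 2517 after washed 4R, against 2309, 2469 and 2297 in control cultures, a change of 0.26 (SE 0.19, 95% interval -0.18 to 0.71). Grik2 averaged 476 ± 34.2 after washed 4R and 320.5 ± 125 in control cultures (SD, n = 3 each), a change of 0.52 (SE 0.39), and its arrays also all lay above their controls. That separation was shown by 2 of 11 members, Gria1 and Grik2, and by 3.96% of all tested probe sets. Changes of the other members lay between -0.22 and 0.35 for 4R and between -0.37 and 0.47 for washed 4R.

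Effects measured in separate runs with separate controls were also averaged. For NMDA present for 60 min, in the continuous and crossed runs, 0 of 9 members passed and 0 were under 0.05 unadjusted, where 1.3% and 3.56% of 843 probe sets did. The largest falls in value were those of Grik3, -0.73 (SE 0.37, 95% interval -1.50 to 0.04), and Gria2 (M36419_s_at), -0.50 (SE 0.25). For the 30 min pulse followed by 24 h, in the pulse and washed-out repeat runs, 0 of 7 passed and 0 were under 0.05 unadjusted, where 2.09% and 9.48% of 812 probe sets did. There the changes lay between -0.38 for Grik2 and 0.03 for Gria2 (M36419_s_at).

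Genes that cluster, anchor or regulate these receptors were counted from lists chosen with the members. Of 25 auxiliary, trafficking and editing genes, 4 were on the array: Grip1 and Grip2, PDZ proteins that bind the GluA2 tail, Nptx2, a secreted pentraxin that clusters AMPA receptors, and Nptxr, its membrane-bound receptor. Nptx2 (S82649_s_at) passed with a rise in 4 comparisons where no subunit passed. Its log2 change was 2.29 after the 10 min pulse (SE 0.56, adjusted p = 0.0368), 2.05 over the 3 pulses (SE 0.46, adjusted p = 0.0144) and 1.32 for washed-out NMDA averaged over both nicotine states (SE 0.30, adjusted p = 0.0396). In the average of the 30 min pulses of both runs it was 1.81 (SE 0.36, adjusted p = 0.00128). These made up the 4 of 100 tests of this list that passed, all rises, and 11 were under 0.05 unadjusted. Among 12 postsynaptic scaffold and kinase genes on the array, such as Dlg4, which encodes PSD-95, 0 of 298 tests passed and 10 were under 0.05 unadjusted. The delta subunit Grid1 passed in 0 of 29 comparisons, with 0 under 0.05 unadjusted. The 6 NMDA receptor subunit genes on the array passed in 0 of 174 tests, with 9 under 0.05 unadjusted. Over all probe sets and the same 29 comparisons, 0.592% of tests passed and 5.88% were under 0.05 unadjusted.

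The probe sets nearest in pattern were found by the correlation of log2 signals, centred on each run's mean, over 84 arrays of the 7 main runs. For Gria1 (M36418_s_at) they were those of Pja2 (r = 0.69), Stx6 (0.68), Glul (0.63), Rab3a (0.63) and Cacna1b (0.63). For Grik5 they were those of Map2k2 (r = 0.54), Syt3 (0.53), Bmyc (0.51), Grina (0.48) and Grip2 (0.48). These correlations describe the arrays, which share runs and array quality. In single runs they ranged from -0.64 to 0.96 for the Gria1 neighbours and from -0.35 to 0.88 for those of Grik5. Probe sets of the same gene also differed: the main Gria1 pair had the same sign in 20 of 29 comparisons, with a median absolute difference of 0.20 in log2 change, and the Gria2 pair in 20 of 29, with 0.25.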

How the data were processed

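RNA from rat cortical neuron cultures was measured on 112 Affymetrix arrays. The deposited values were linear signal intensity, 1 per probe set and array; the software is not stated in the labels or file headers. From the values, each array's trimmed mean (2% off each end) lay between 2503 and 2513, so the authors had scaled them. The number of arrays per group limits the precision of every value. Of 1322 probe sets, 59 controls were left out. Genes were named from the platform annotation table, and all 16 member probe sets matched RefSeq by Entrez ID.

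Values were log2(signal + offset), the offset being the 10th percentile of a run's positive values. A run was tested on probe sets with a mean signal at or above its 30th percentile. Group means were fitted per run with limma 3.58.1 (R 4.3.3) with an intensity trend, 2-sided, Benjamini-Hochberg adjusted over all probe sets, threshold 0.05. The procedure was tested on simulated data. Alternatives changed the offset, filter, normalization, groups, arrays and run.

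Replicates of the pulse, crossed and 18 h 4R runs carry shared culture marks in the labels. So do replicates 4 and 5 of the washed 4R run, but not replicate 3. In the continuous run 45 of 45 same-numbered pairs had correlated deviations above 0.1. No main fit took replicates as pairs, and a replicate block was fitted as an alternative. Replicate 1 of the 30 min pulse carries 60 min in 1 label field and was kept with 30 min.

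All 16 probe sets are named; values on every array follow a rule: they are given for members that passed or, where none did, for the member with the smallest p of a run. Every other gene or pattern singled out was chosen after its values were seen. The members and lists were chosen with earlier results of these data known.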

Additional observations from a re-analysis of the deposited data

Results flagged for a closer look

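In the 8 groups of 4 or 5 arrays of the main runs, 68 sets of member values were checked by Dixon's ratio for 1 array far from the rest. Of these 6 were marked, where chance marks about 1 in 20. The first washed-out run was not checked. All marked values lay in the washed-out repeat run. Control replicate 3 read 226.6 for Gria1 (M36418_s_at), where the other controls read 2247 to 4567, and 6853.1 for Grik3, where the others read 186 to 445. That array stood apart from its whole run. Replicate 4 of the nicotine group read 730.4 for Gria2 (M36419_s_at) and 378.9 for Gria2 (M38061_at), where the other replicates read 1411 to 1634 and 1411 to 1929. Replicate 4 of the NMDA group read 609.7 and 453.0 for the same probe sets, where the others read 1424 to 1882 and 1371 to 1995. The replicate 4 samples were low for M38061_at in the first run of the same samples too, and the cause was not tested.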

How the results depend on the processing

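In 609 refits of the 29 comparisons, 597 of them planned and 12 added after seeing the data, 603 called 0 members. This includes each of the 287 fits that left out 1 replicate, whose counts ranged from 0 to 0. The exceptions all used the first washed-out run. There Grik4 gave 1 call for NMDA against control and 1 for NMDA averaged over both nicotine states. With the replicate block on the first run, an added fit, there were 1 for NMDA against control, 1 for NMDA in nicotine (Grik4, -0.94, adjusted p = 0.0388), 2 for NMDA averaged over both nicotine states (Grik4, and Grik5 with -0.18, adjusted p = 0.0332) and 1 for the average of the 30 min pulses (Grik4, -0.76, adjusted p = 0.0271). In that run 24 of 30 same-numbered pairs correlated above 0.1 (median r = 0.37) and in the repeat run 19 of 30 (0.15). In the pulse run 20 of 24 did (0.31) and in the crossed run 14 of 18 (0.28). No main fit of any run took the numbers as pairs, so the main p-values leave such pairing out. In the main runs the replicate block called no member: for Gria1 (M36418_s_at) over the 3 pulses the blocked change was -0.94 (adjusted p = 0.345). Its smallest adjusted p over 29 fits was 0.0507, with the block once the arrays standing apart were removed. With the repeat arrays in place of the first ones it was 0.168, with a change of -0.76. Of 250 refits of the 14 single changes that had an unadjusted p under 0.05 or the smallest p of their run, 249 kept the sign and none passed the threshold. The exception was Grik3 with washed-out nicotine, at 0.21 in the first run, where the repeat run gave -1.31. The cause was not tested. Most of these refits reuse the same arrays, so a kept sign is no separate support for a change. The number of arrays and the signal near background limit what could be seen for Gria3, Grik1 and Grik4. Why the hybridizations of the same samples differ was not tested.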
